A study of Homo sapiens with 16 samples.

Results

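Gene expression was compared for the genes that set the pace of the G1 phase of the cell cycle in Nalm6, a line of human leukaemia cells that resemble B-cell precursors. The set held the D cyclins CCND2 and CCND3, the E cyclins CCNE1 and CCNE2, the kinases CDK4 and CDK6, the kinase inhibitors CDKN1B, CDKN2C and CDKN2D, and SKP2. Members were the probe sets that the platform annotation assigns to exactly 1 of these 10 genes, and the brightest over the arrays stood for its gene. The rule found 22 probe sets for 9 of the 10 genes, out of 18132 genes tested. No such probe set matched CDKN2C, which was not analysed here. The study used 16 Affymetrix PrimeView arrays of total RNA, 4 in each of 4 groups. The groups were cells labelled as carrying active, overexpressed CASP1 (an inflammatory caspase) with prednisolone for 24 hours, the same cells untreated, control cells with prednisolone for 24 hours, and control cells untreated. All cells grew in RPMI1640 with 10% serum and glutamine. The sample labels spell the drug as a form of prednisone and the protocol as prednisolone, a synthetic glucocorticoid. Neither a dose, nor the vector, nor whether a line is 1 clone or a pool is stated in the labels.

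A cell leaves G1 when cyclin D with CDK4 or CDK6, and then cyclin E with CDK2, phosphorylate the retinoblastoma family and free the E2F factors, which switch on genes of DNA replication. The INK4 inhibitors, which include the products of CDKN2C and CDKN2D, bind CDK4 and CDK6, while p27, the product of CDKN1B, holds back cyclin E and CDK2. SKP2 is the F-box subunit that brings p27 to a ubiquitin ligase for destruction. Glucocorticoids are known to arrest lymphoid leukaemia cells in G1, and cyclin D3 is the D cyclin most closely tied to B-cell precursors.

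The promoters of 3 members are shown from RefSeq (GRCh38.p14, 5′ to 3′, 250 bases before the start of the gene and 50 after it). SKP2 had the largest prednisolone difference among the members in control cells, CDK4 differed with prednisolone in both lines, and CDKN1B differed between the lines but not detectably with the drug. The SKP2 promoter lies at chr5:36151861-36152160 on the plus strand, the CDK4 promoter at chr12:57752261-57752560 on the minus strand and the CDKN1B promoter at chr12:12717118-12717417 on the plus strand. Capitals mark matches to CACGTG, the E-box bound by MYC, or to CCAAT, bound by NF-Y, on either strand.
SKP2: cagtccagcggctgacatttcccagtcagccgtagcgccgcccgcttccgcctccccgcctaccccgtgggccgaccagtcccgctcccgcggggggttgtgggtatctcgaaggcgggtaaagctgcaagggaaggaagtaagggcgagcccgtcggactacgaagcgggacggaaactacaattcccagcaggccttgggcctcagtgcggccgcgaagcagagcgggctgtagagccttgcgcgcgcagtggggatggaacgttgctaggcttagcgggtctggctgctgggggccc
CDK4: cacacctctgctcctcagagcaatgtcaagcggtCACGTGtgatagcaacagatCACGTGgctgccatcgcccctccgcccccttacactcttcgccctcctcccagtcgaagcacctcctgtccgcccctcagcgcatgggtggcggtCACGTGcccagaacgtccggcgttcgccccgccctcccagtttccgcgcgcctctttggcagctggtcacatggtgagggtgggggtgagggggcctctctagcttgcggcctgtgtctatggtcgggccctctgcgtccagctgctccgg
CDKN1B: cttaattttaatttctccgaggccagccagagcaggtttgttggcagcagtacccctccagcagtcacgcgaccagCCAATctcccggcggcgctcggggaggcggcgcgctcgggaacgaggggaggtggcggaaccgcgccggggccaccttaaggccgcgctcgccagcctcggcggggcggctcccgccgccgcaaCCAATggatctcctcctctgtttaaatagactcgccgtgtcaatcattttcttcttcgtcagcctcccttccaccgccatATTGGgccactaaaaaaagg
The CDK4 window held 3 copies of CACGTG, at -216, -196 and -101 from the start. At least 3 copies were in 0.094% of the 35116 promoters in the table, and at least 1 copy in 7.26%. Of the 13 promoters scanned for members 4 held at least 1 copy, and they belonged to CDK4, CDK6 and CDKN2C. The CDKN1B window held 3 copies of CCAAT. At least 1 copy was in 34.6% of all promoters, and the share with at least 3 was not counted. The E2F letters TTTCCCGC, TTTGGCGC, TTTCGCGC and TTTGCCGC, searched on both strands, were in 3.31% of all promoters and in 0 of the 13 promoters scanned for 8 of the members. Promoters of CCND2 and CCNE2 were not scanned, and 3 of the 13 belonged to CDKN2C, which had no probe set. A match is a description of the letters, and the absence of these letters says nothing of the factor.

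The medians of the arrays ran from 4.85 to 4.93 (log2 signal), and the number of arrays limits the precision. Nothing in the labels ties the arrays of a group to separate cultures, and the p-values then cover only the spread between these samples, which may be technical. The gene named in the labels went against them: CASP1 averaged 5.02 and 5.69 in treated and untreated cells labelled CASP1, against 6.95 and 7.75 in treated and untreated control cells. The lines are therefore called by their labels, and every direction between them rests on labels that this CASP1 signal does not bear out. That signal is from the brightest CASP1 probe set alone, and whether it reads RNA from the vector is not known. The receptor target TSC22D3 was higher with prednisolone in both lines, by 5.79 in cells labelled CASP1 and by 4.70 in control cells. The arrays of replicate 1 stood apart from the other 3 numbers in every group, and their deviations from the group means correlated with each other at 0.19 to 0.51 across genes. Where a member gained or lost a call without these 4 arrays, both values are given. Of the B-cell precursor markers 9 were measured, with mean signals of 6.69 to 12.75, while the T-cell markers lay between 3.19 and 4.17, the myeloid markers between 2.98 and 4.38, and the erythroid marker HBB at 4.14. Of these 9 markers of other cell types, 0 were called in any comparison.

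Several of the genes that drive G1 were lower with prednisolone, and CCND3, CDK4 and SKP2 fell in both lines. In cells labelled CASP1, these 3 of the 9 members fell and 0 rose. In control cells 5 fell (CCND3, CCNE1, CDK4, CDK6 and SKP2) and 1, CCND2, rose. A gene was called at a limma adjusted p under 0.05 over all genes. Over all genes the same rule called 6.34% in cells labelled CASP1 (2.99% higher, 3.35% lower) and 14.2% in control cells (5.73% higher, 8.43% lower), against 33.3% and 66.7% of the members. The members were chosen with earlier results of these data known, so these shares are a description and not a test of the set. With the dimmest 30% of genes left out, the shares of genes called were 10.1% and 21.7%. The median difference of the members was -0.36 in cells labelled CASP1 and -0.33 in control cells, where the medians of all genes were 0.018 and -0.015. Without the 4 arrays of replicate 1, 5 members fell in cells labelled CASP1 and 6 in control cells, and 0 rose, and the shares of all genes called were 11.9% and 21.9%. Each array measured a whole culture, so fewer cells that express a gene and less RNA per cell cannot be told apart.

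**Figure D1:**
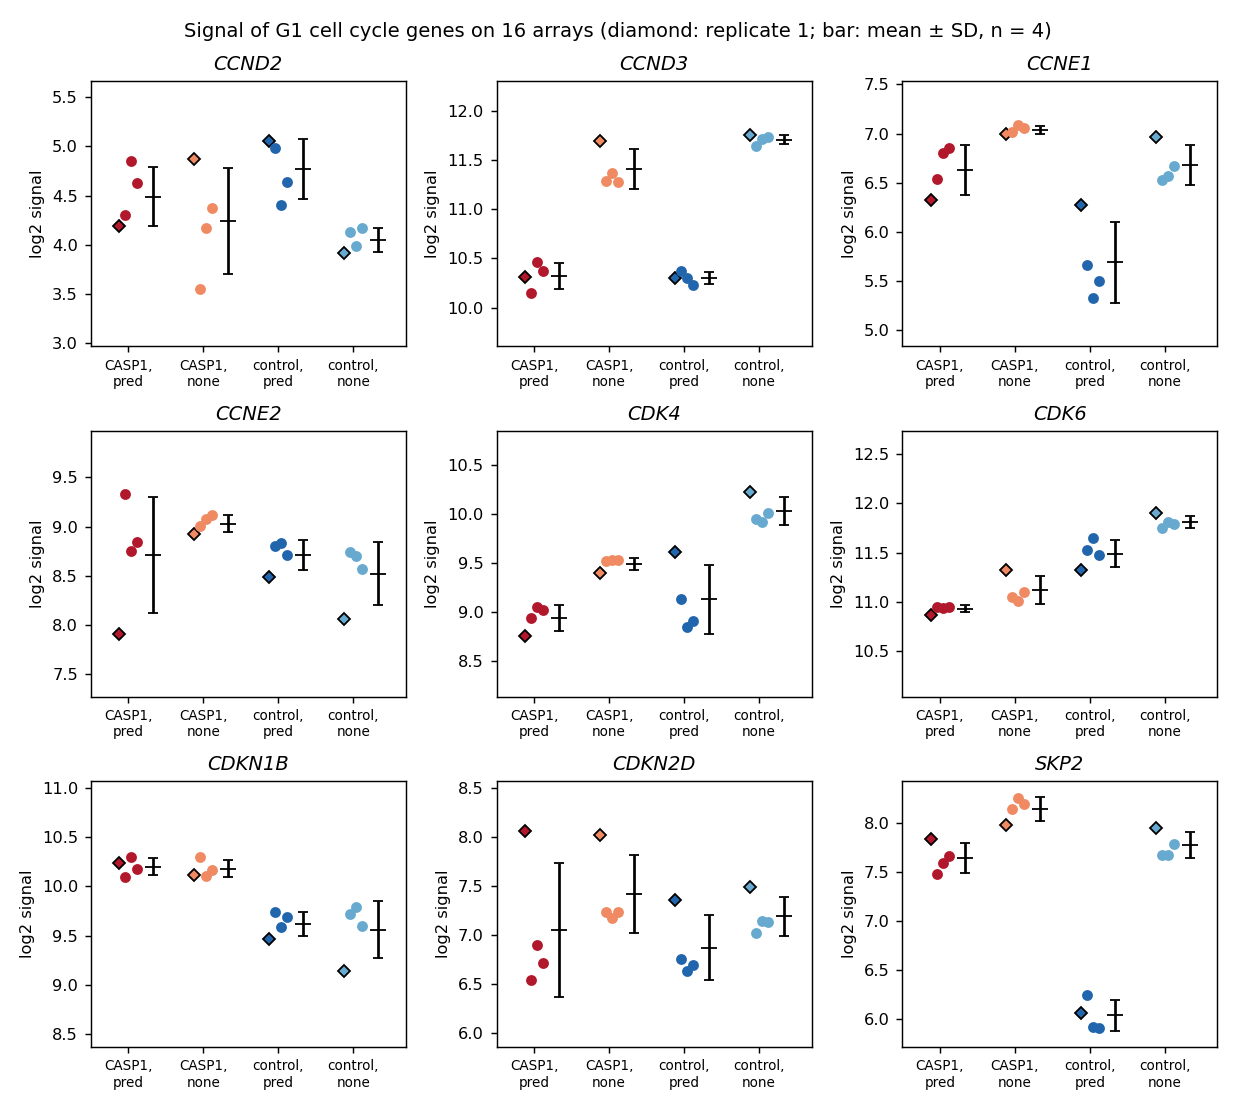
Log2 signal of 9 G1 genes on each of the 16 arrays, with the 4 groups along each horizontal axis and the mean ± SD (n = 4) as a bar beside the points. Diamonds are the arrays of replicate 1, and every panel spans the same log2 range. SKP2 on the treated control arrays lay between 5.91 and 6.25, below all 12 other arrays.

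CCND3, the cyclin that partners CDK4 and CDK6 in B-cell precursors, fell more than 2-fold with prednisolone in both lines. CCND3 signal was 10.31, 10.15, 10.46 and 10.37 in treated cells labelled CASP1, against 11.70, 11.29, 11.37 and 11.28 in untreated ones. Control cells had CCND3 at 10.30, 10.37, 10.30 and 10.23 with prednisolone, against 11.76, 11.64, 11.72 and 11.74 without. The treated and untreated arrays did not overlap in either line, and the treated arrays of the 2 lines overlapped, with a difference of 0.02 between them (95% interval -0.18 to 0.22). The difference was -1.08 (SE 0.096, 2.12-fold lower, limma adjusted p = 6.1e-07) in cells labelled CASP1 and -1.41 (2.66-fold lower, adjusted p = 1.2e-08) in control cells. From the largest fall, CCND3 ranked 14 of 18132 genes in cells labelled CASP1 and 22 in control cells. The other CCND3 probe set, with a mean signal of 2.74, had differences of -0.15 and -0.29 in the same order, and neither was called.

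CCND2, another D cyclin, had group means between 4.05 and 4.77 and rose in control cells. CCND2 signal was 4.19, 4.30, 4.85 and 4.63 in treated cells labelled CASP1, against 4.87, 3.55, 4.17 and 4.37 in untreated ones, and these ranges overlapped. The control arrays were at 5.06, 4.98, 4.40 and 4.64 with prednisolone, against 3.92, 4.13, 3.99 and 4.17 without, with no overlap. The control difference of 0.72 (SE 0.22, limma adjusted p = 0.031) opposed that of CCND3 in sign, and in cells labelled CASP1 it was 0.25 (95% interval -0.20 to 0.71). The call rested on few arrays. It ended without untreated replicate 1 (0.67, adjusted p = 0.077), 2 (0.74, 0.056) or 3 (0.70, 0.074) or treated replicate 1 (0.62, 0.092) or 2 (0.65, 0.095) of the control cells, and on dropping all 4 arrays of replicate 1 (0.58, adjusted p = 0.055). The 2 other CCND2 probe sets had control differences of 0.02 and 0.10 at mean signals of 3.46 and 3.01.

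CDK4 and CDK6 are the kinases that the D cyclins activate, and CDK4 fell with the drug in both lines. CDK4 signal was 8.76, 8.94, 9.05 and 9.02 in treated cells labelled CASP1, against 9.40, 9.52, 9.53 and 9.53 in untreated ones. The control arrays were at 9.61, 9.13, 8.85 and 8.91 with prednisolone, against 10.22, 9.95, 9.92 and 10.01 without. Treated arrays were below untreated ones in both lines with no overlap, by -0.55 (SE 0.13, limma adjusted p = 0.016) in cells labelled CASP1 and by -0.90 (adjusted p = 9.7e-05) in control cells. All 4 CDK4 probe sets were called lower in both lines, by -0.68 to -0.55 and by -0.94 to -0.81. MYC, whose protein binds the E-box letters shown in the CDK4 promoter, was also lower with the drug, by -0.96 in cells labelled CASP1 (limma adjusted p = 7e-07) and by -1.12 in control cells (adjusted p = 5.1e-08). The same letters were in a promoter of CDK6, which was called with the drug in control cells only, and not in those of CCND3. A link between the falls of MYC and CDK4 was not tested.

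CDK6 fell with the drug in control cells, by a smaller amount. CDK6 signal was 10.87, 10.95, 10.94 and 10.95 in treated cells labelled CASP1, against 11.32, 11.05, 11.01 and 11.10 in untreated ones. Control cells had CDK6 at 11.32, 11.53, 11.65 and 11.48 with prednisolone, against 11.90, 11.75, 11.81 and 11.79 without. The control difference was -0.32 (SE 0.087, limma adjusted p = 0.017), or -0.26 with adjusted p = 0.059 without treated control replicate 1. In cells labelled CASP1 it was -0.19 (95% interval -0.37 to -0.01) and was not called. All treated arrays there were nevertheless below the untreated ones. Of the 4 CDK6 probe sets, 2 were called lower in control cells, with differences of -0.34 to -0.27 over all 4. In cells labelled CASP1 0 of them were called.

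Of the 2 E cyclins, which activate CDK2 late in G1, CCNE1 fell in control cells and CCNE2 was called in neither line. CCNE1 signal was 6.32, 6.54, 6.80 and 6.85 in treated cells labelled CASP1, against 7.0, 7.02, 7.09 and 7.06 in untreated ones. The control arrays were at 6.27, 5.66, 5.33 and 5.50 with prednisolone, against 6.97, 6.53, 6.57 and 6.67 without. CCNE1 was lower by -0.99 (SE 0.16, 1.99-fold, limma adjusted p = 0.00029) in control cells. The CCNE1 difference in cells labelled CASP1 was -0.41 (95% interval -0.76 to -0.06, adjusted p = 0.18), with no overlap in either line. Without the 4 arrays of replicate 1 the difference in cells labelled CASP1 was -0.32 and just passed (adjusted p = 0.05 after rounding). CCNE2 signal was 7.91, 9.33, 8.75 and 8.84 in treated cells labelled CASP1, against 8.92, 9.01, 9.08 and 9.12 in untreated ones. In control cells CCNE2 was 8.49, 8.80, 8.83 and 8.71 with prednisolone, against 8.06, 8.74, 8.70 and 8.57 without. The groups overlapped in both lines, and the differences of CCNE2 were -0.33 (95% interval -0.77 to 0.12) and 0.19 (-0.26 to 0.64).

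The 2 inhibitors measured among the members, CDKN1B and CDKN2D, were not called with prednisolone in either line on all 16 arrays. CDKN1B signal was 10.24, 10.10, 10.30 and 10.18 in treated cells labelled CASP1, against 10.12, 10.30, 10.11 and 10.17 in untreated ones. Control cells had CDKN1B at 9.47, 9.74, 9.59 and 9.69 with prednisolone, against 9.14, 9.72, 9.79 and 9.60 without. Treated and untreated arrays overlapped in both lines, and the 95% intervals of the CDKN1B difference were -0.22 to 0.27 in cells labelled CASP1 and -0.19 to 0.31 in control cells. The arrays measured RNA, so the amount of p27 protein, on which SKP2 acts, was not measured.

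CDKN2D, which encodes the INK4 inhibitor p19, differed more between replicate 1 and the other arrays than between treatments. CDKN2D signal was 8.06, 6.54, 6.90 and 6.72 in treated cells labelled CASP1, against 8.02, 7.24, 7.17 and 7.24 in untreated ones. The control arrays were at 7.36, 6.76, 6.64 and 6.70 with prednisolone, against 7.49, 7.02, 7.14 and 7.13 without. Replicate 1, named first in each set of values, was the highest array of all 4 groups. On all arrays the differences were -0.36 (limma adjusted p = 0.55) in cells labelled CASP1 and -0.33 (adjusted p = 0.55) in control cells. Without the 4 arrays of replicate 1 they were -0.50 (adjusted p = 0.0019) and -0.40 (adjusted p = 0.0046), and without treated replicate 1 of the CASP1-labelled cells alone the first was -0.70 (adjusted p = 0.042).

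SKP2 fell with prednisolone 3.32-fold in control cells and 1.41-fold in cells labelled CASP1, and the responses differed by the test of the interaction given further on. SKP2 signal was 7.83, 7.48, 7.59 and 7.66 in treated cells labelled CASP1, against 7.98, 8.14, 8.25 and 8.19 in untreated ones. Control cells had SKP2 at 6.06, 6.25, 5.92 and 5.91 with prednisolone, against 7.95, 7.67, 7.67 and 7.78 without. Neither pair of groups overlapped. The difference was -0.50 (SE 0.1, 95% interval -0.72 to -0.28, limma adjusted p = 0.006) in cells labelled CASP1 and -1.73 (-1.95 to -1.51, adjusted p = 2.2e-09) in control cells, where it ranked 11 from the largest fall of all genes. The dimmer SKP2 probe set, with a mean signal of 4.98, had differences of -0.30 (adjusted p = 0.53) and -0.64 (adjusted p = 0.053), and with the mean of both probe sets the fall in cells labelled CASP1 was -0.40 and no longer called (adjusted p = 0.084).

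**Figure D2:**
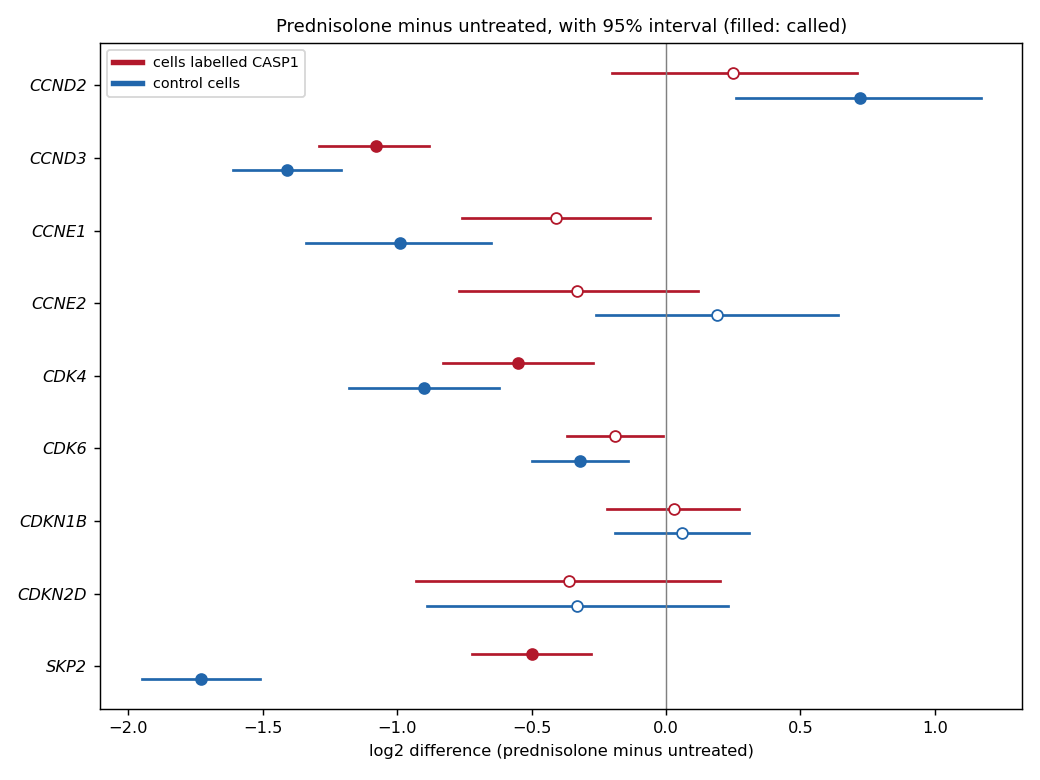
Log2 difference of prednisolone minus untreated for each of the 9 genes, with its 95% interval, in cells labelled CASP1 (upper line of each pair) and in control cells (lower line). Filled points were called by limma over all genes, and the 2 SKP2 intervals (-0.72 to -0.28 and -1.95 to -1.51) do not meet.

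**Figure D3:**
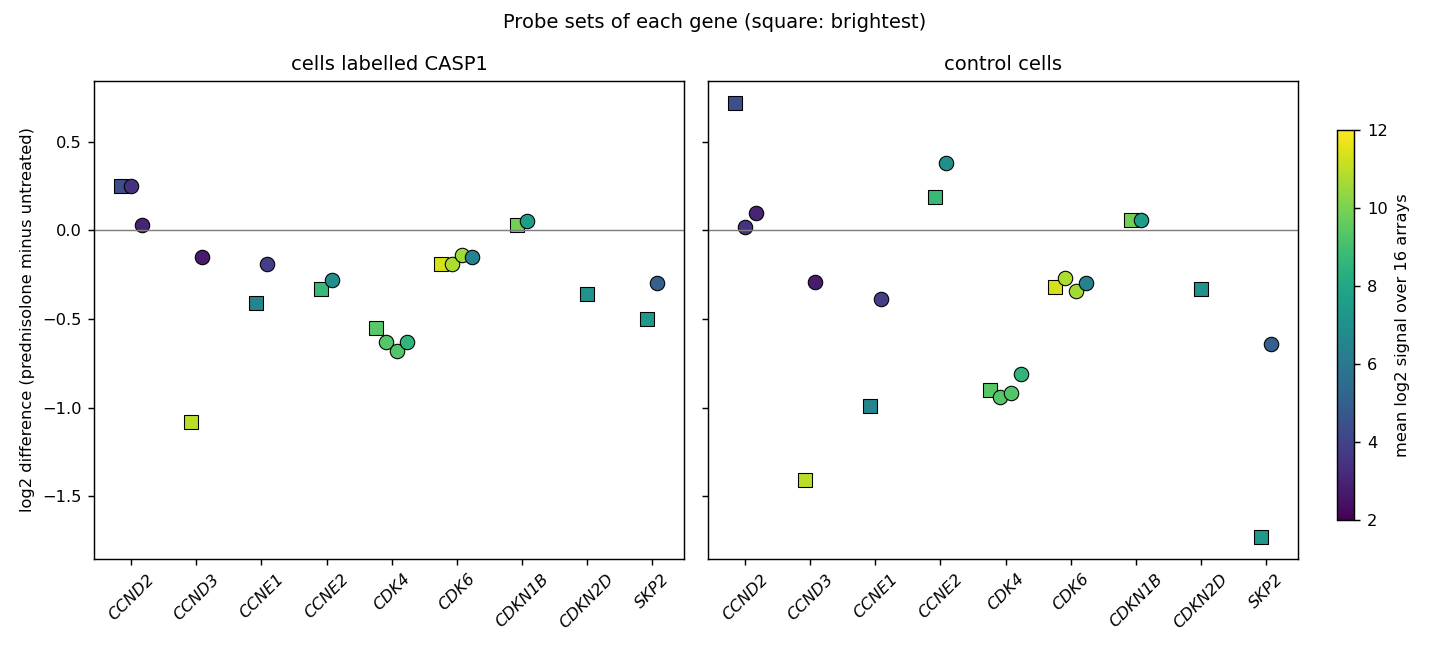
Log2 difference of prednisolone minus untreated for the 22 probe sets of the 9 genes, in cells labelled CASP1 (left) and control cells (right), coloured by mean log2 signal over 16 arrays, with a square for the brightest probe set of a gene. The 4 CDK4 probe sets lie close together in both lines, while the dim probe sets of CCND3 and SKP2 differ less than the bright ones.

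The interaction, which is the drug response of cells labelled CASP1 minus that of control cells, was called for 1 member, SKP2, against 0.888% of all genes (0.524% above 0 and 0.364% below). SKP2 had an interaction of 1.23 (SE 0.15, 95% interval 0.92 to 1.54, limma adjusted p = 0.00048), the 12th largest positive value of all genes. The other SKP2 probe set gave 0.34 (adjusted p = 0.8). CCNE1 had an interaction of 0.58 (95% interval 0.10 to 1.07, adjusted p = 0.36), which passed without treated control replicate 1 (0.78, adjusted p = 0.045) and without the 4 arrays of replicate 1 (0.77, adjusted p = 0.0066). CDK4 had 0.35 (adjusted p = 0.57), and 0.47 (adjusted p = 0.031) without those 4 arrays, when 4.01% of all genes were called. For CCND3 the interaction was 0.33 (95% interval 0.04 to 0.61) and for CDKN1B -0.03 (-0.38 to 0.32), and neither was called.

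Between the lines, cells labelled CASP1 had more CDKN1B and less CDK6 than control cells, with and without the drug. SKP2 was also higher in both conditions, but by its brighter probe set only. With prednisolone, CCNE1, CDKN1B and SKP2 were higher and CDK6 lower in cells labelled CASP1, which is 44.4% of the 9 members against 16.4% of all genes (7.88% higher, 8.52% lower). Untreated, CDKN1B and SKP2 were higher and CCND3, CDK4 and CDK6 lower, which is 55.6% against 14.1% (5.87% higher, 8.2% lower). With the dimmest 30% of genes left out, the shares of genes called were 24.8% with prednisolone and 21.4% untreated. The member medians were 0.02 with the drug and 0.22 without. The comparisons share arrays with those of the drug, so their values are given side by side. Without any 1 of 4 arrays, 3 members were called between untreated lines, when CCND3 and SKP2 lost their calls. These were untreated control replicates 2 and 3 and untreated CASP1-labelled replicates 3 and 4. The share of all genes called was then 10.9% to 12%.

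CDKN1B was higher in cells labelled CASP1 by 0.58 (SE 0.12, 1.5-fold, limma adjusted p = 0.002) with prednisolone and by 0.61 (1.53-fold, adjusted p = 0.0015) without, and both of its probe sets were called in each condition. CDK6 was lower there by -0.57 (SE 0.087, adjusted p = 0.00021) with prednisolone and by -0.69 (adjusted p = 3.2e-05) without, and all 4 of its probe sets were called in each. For both genes every array labelled CASP1 lay outside the range of the control arrays of the same treatment.

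SKP2 was higher in cells labelled CASP1 by 1.60 (SE 0.1, 3.04-fold, limma adjusted p = 2.4e-08) with prednisolone and by 0.37 (1.29-fold, adjusted p = 0.021) without. The untreated call ended without untreated control replicate 2 (0.34, adjusted p = 0.067) or 3 (0.34, 0.069) or untreated CASP1-labelled replicate 3 (0.33, 0.07) or 4 (0.36, 0.055). The dimmer probe set had the opposite sign, at -0.21 with the drug and -0.55 without, and was not called, and with the mean of both probe sets the untreated difference of SKP2 was -0.09 (adjusted p = 0.77). CCNE1 was higher by 0.94 (SE 0.16, adjusted p = 0.00065) with prednisolone and by 0.35 (adjusted p = 0.19) without, and the untreated value was 0.46 (adjusted p = 0.0035) without the 4 arrays of replicate 1.

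CDK4 was lower in untreated cells labelled CASP1 by -0.53 (SE 0.13, limma adjusted p = 0.011), with all 4 probe sets called, and with prednisolone the difference was -0.19 (95% interval -0.47 to 0.09). CCND3 was lower in untreated cells labelled CASP1 by -0.31 (adjusted p = 0.04), with overlapping ranges, and that call ended on leaving out any 1 of 9 arrays (-0.40 to -0.26 over all single omissions, highest adjusted p = 0.12) and after another quantile normalization (-0.27, adjusted p = 0.072). CCNE2 was at 0.52 (adjusted p = 0.13) between untreated lines. It was called with the replicate number as a block (adjusted p = 0.025), with only the groups compared (adjusted p = 0.029), without treated CASP1-labelled replicate 1 (adjusted p = 0.018) and without the 4 arrays of replicate 1 (0.40, adjusted p = 0.03). The other CCNE2 probe set, with a mean signal of 6.98, was called higher there on all arrays (0.57, adjusted p = 0.048). CCND2 and CDKN2D were called in neither condition.

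**Figure D4:**
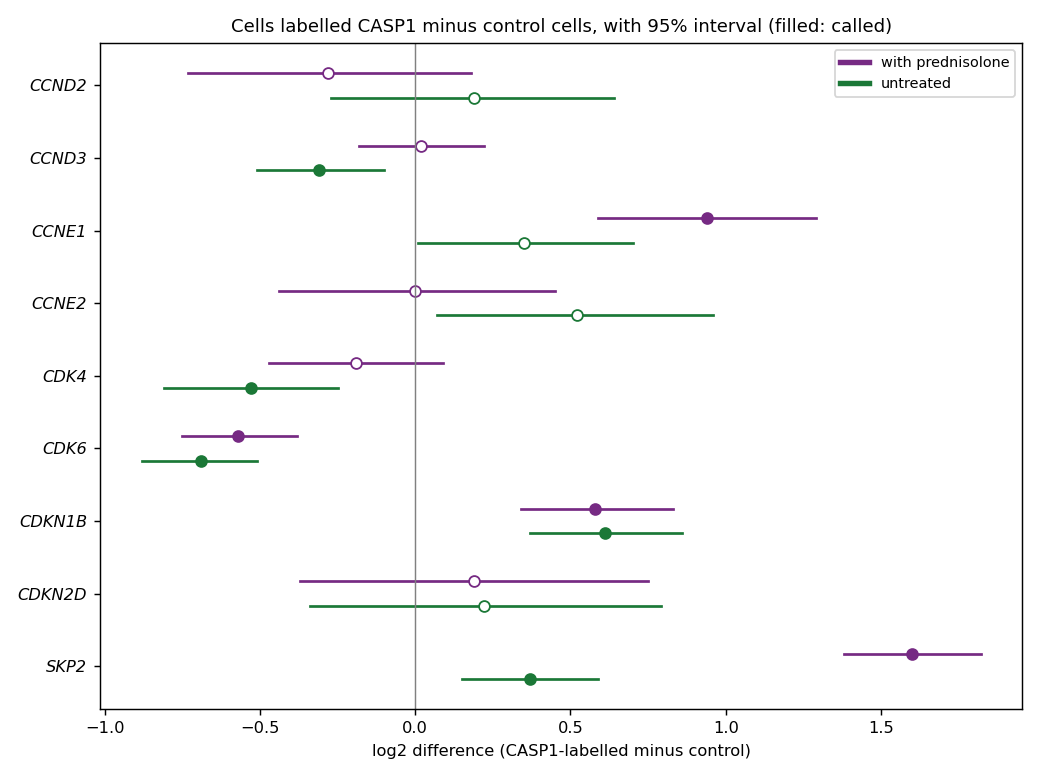
Log2 difference of cells labelled CASP1 minus control cells for each of the 9 genes, with its 95% interval, with prednisolone (upper line of each pair) and untreated (lower line). Filled points were called by limma, and CDKN1B and CDK6 lie on opposite sides of 0 in both conditions.

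Other genes of the same pathway, 43 in all, were counted in 5 lists. The shares of all genes called, against which each list's count with prednisolone is to be read, were 6.34% in cells labelled CASP1 and 14.2% in control cells. Of 10 other G1 cyclins, kinases, inhibitors and their activators, 2 fell with prednisolone in cells labelled CASP1 and 4 in control cells, and 0 rose in either, which is 20% and 40% of the list, with median differences of -0.15 and -0.27. CDKN1C, which encodes the kinase inhibitor p57, fell by 1.22 in cells labelled CASP1 (limma adjusted p = 0.00023) and by 1.58 in control cells (adjusted p = 4.7e-06). CDC25A, the phosphatase that activates CDK2, fell by 0.76 and by 1.55 in the same order, and its interaction of 0.78 was called (adjusted p = 0.011). CDKN1A, which encodes the inhibitor p21, fell by 1.03 in control cells (adjusted p = 0.011), and CDK2 by 0.58 (adjusted p = 9e-05), while in cells labelled CASP1 their differences were -0.21 and -0.16 and not called. CCND1 had group means of 3.24 to 3.46, CDKN2B of 2.78 to 2.98 and CDKN2A of 4.35 to 4.60, and none of these was called in any comparison.

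Of 13 pocket proteins and E2F factors, 4 fell and 0 rose with prednisolone in cells labelled CASP1, and 8 fell and 1 rose in control cells (30.8% and 69.2% called, against 6.34% and 14.2% of all genes), with medians of -0.26 and -0.44. E2F8 and E2F7, which repress other E2F targets, had differences of -0.74 and -0.50 in cells labelled CASP1, of which the second was not called (limma adjusted p = 0.094), and fell by 1.33 and 1.14 in control cells. E2F1, an activator, fell by 0.47 (adjusted p = 0.0029) and by 0.76 (adjusted p = 7.8e-06). The other 2 calls in cells labelled CASP1, E2F6 (-0.35, adjusted p = 0.038) and E2F5 (-0.29, adjusted p = 0.034), ended on leaving out any 1 of 9 and of 7 arrays (highest adjusted p 0.15 and 0.09), so that 2 genes of the list were called when any of the CASP1-labelled untreated replicates 1, 3 and 4 or treated replicates 2 and 4 was left out. The share of all genes called on those omissions was 4.36% to 6.45%. E2F2, also an activator, fell by 0.70 in control cells (limma adjusted p = 0.00047). E2F3 was the gene of this list that rose there, by 0.38 (adjusted p = 0.019), and was chosen after its values were seen. That call ended without treated replicate 1 (0.28, adjusted p = 0.062) or untreated replicate 3 (0.35, 0.062) or 4 (0.37, 0.055). RB1, the retinoblastoma gene, had drug differences of -0.26 and -0.05 that were not called.

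Of 9 partners of the ubiquitin ligases that turn over p27 and G1 cyclins, 0 were called with prednisolone in cells labelled CASP1, where 0 had an unadjusted p under 0.05, and 3 fell and 1 rose in control cells (44.4% called, against 14.2% of all genes). The medians were -0.02 and -0.12. CKS1B, the cofactor that SKP2 needs to bind p27, was at -0.18 in cells labelled CASP1 (limma adjusted p = 0.56) and fell by 0.81 in control cells (adjusted p = 0.00028). FBXW7, the F-box protein that brings cyclin E to destruction, was at 0.19 and rose by 0.51 in control cells (adjusted p = 0.00096). SKP1 and CUL1, the adaptor and scaffold of these ligases, were called with the drug in neither line. FBXO4, an F-box protein, fell by 0.43 in control cells (adjusted p = 0.0036), but was at -0.11 and not called with the mean of its probe sets. RBX1, the RING subunit, fell there by 0.36 (adjusted p = 0.018), and leaving out untreated replicate 2 (-0.26, adjusted p = 0.071) or treated replicate 4 (-0.34, 0.051) of those cells ended the call.

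Of the 7 genes of the MuvB core with MYBL2 and FOXM1, which control cell cycle genes, 2 fell in cells labelled CASP1 and 4 in control cells, and 0 rose (28.6% and 57.1% called, against 6.34% and 14.2% of all genes), with medians of -0.13 and -0.36. LIN54, a DNA-binding subunit of the core, fell by 0.47 (adjusted p = 0.0029) and by 0.71 (adjusted p = 1.8e-05), but with the mean of its probe sets the differences were -0.11 and -0.19 and not called. RBBP4, a histone-binding subunit, fell by 0.37 (adjusted p = 0.036) and by 0.36 (adjusted p = 0.022), calls that ended on leaving out any 1 of 7 and of 4 arrays (highest adjusted p 0.098 and 0.073). FOXM1, a factor of late cell cycle genes, was at -0.06 in cells labelled CASP1 and fell by 0.60 in control cells (limma adjusted p = 0.012), or by 0.53 with adjusted p = 0.053 without treated control replicate 3, when 2 genes of the list were called. That omission left 11.2% of all genes called in control cells. LIN9, another subunit of the core, fell by 0.55 in control cells (limma adjusted p = 0.0074). Of 4 transcription factors known to act on members, 1 was called in cells labelled CASP1 and 2 in control cells. MYC fell in both lines (list medians -0.06 and 0.23), and FOXO1, which can activate CDKN1B, was at -0.10 in cells labelled CASP1 (adjusted p = 0.69) and rose by 0.43 in control cells (adjusted p = 0.0057). FOXO3 and FOXO4 were not called with the drug.

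On leaving out the 4 arrays of replicate 1, when 11.9% of all genes were called in cells labelled CASP1 and 21.9% in control cells, the lists counted more genes with prednisolone. Of the other G1 genes, 4 fell in cells labelled CASP1 and 6 in control cells. In the E2F list 5 fell in cells labelled CASP1, and 9 fell and 1 rose in control cells. Of the ligase partners 1 fell in cells labelled CASP1, and in control cells the count was as before. In the MuvB list 2 fell in cells labelled CASP1, and 5 fell and 1 rose in control cells. Of the 4 factors 1 fell in cells labelled CASP1, and 1 fell and 2 rose in control cells.

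Between the treated lines, where 16.4% of all genes were called, 5 of the 10 other G1 genes were higher in cells labelled CASP1 and 0 lower. CDKN1A was higher by 1.58 (limma adjusted p = 0.00044), CDKN1C by 0.70 (adjusted p = 0.011), CDC25A by 0.50 (adjusted p = 0.0021) and CDK2 by 0.43 (adjusted p = 0.0019). In the E2F list 4 of 13 were higher and 4 lower. E2F7 was higher by 1.02 (adjusted p = 0.00036) and TFDP2, a partner of the E2F factors, by 0.82 (adjusted p = 3.1e-05), while E2F3 was at -0.73 (adjusted p = 0.00012) and RB1 at -0.65 (adjusted p = 0.0064). Of the 9 ligase partners 3 were higher and 2 lower. FZR1, an activator of the anaphase-promoting complex, was higher by 1.12 (adjusted p = 0.0016), CKS1B by 0.92 (adjusted p = 0.00012) and FBXO4 by 0.36 (adjusted p = 0.013), and CUL1 was lower, at -0.35 (adjusted p = 0.0067). With the mean of a gene's probe sets 1 was higher and 2 lower, with FZR1 at 0.16 and FBXO4 at 0.19, neither called. FOXM1 (0.71, adjusted p = 0.004) and LIN54 (0.34, adjusted p = 0.013) were the 2 of 7 MuvB genes called, both higher, and LIN54 was at 0.17 and not called with the mean of its probe sets. Of the 4 factors 0 were called and 1 had an unadjusted p under 0.05.

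Between the untreated lines, where 14.1% of all genes were called, CDK7, the kinase that activates other CDKs, was the 1 other G1 gene called, higher in cells labelled CASP1 by 0.29 (limma adjusted p = 0.028, and 0.1 at most on leaving out 1 array). In the E2F list TFDP2 was higher by 0.53 (adjusted p = 0.0019), and E2F6 (-0.43, adjusted p = 0.0056) and E2F4 (-0.38, adjusted p = 0.0094) were lower. Of the ligase partners FZR1 was higher by 0.89 (adjusted p = 0.0094), or by 0.34 and not called with the mean of its probe sets. RNF123, a ubiquitin ligase subunit for p27, was at 0.54 (adjusted p = 0.037) and CUL1 at -0.28 (adjusted p = 0.027), and each of these calls ended on leaving out any 1 of 6 arrays (highest adjusted p 0.13 and 0.088). LIN37 was the 1 MuvB gene called (0.39, adjusted p = 0.023), or 0.32 (adjusted p = 0.057) once the replicate 1 arrays were dropped. MYC was lower, at -0.40 (adjusted p = 0.0039), and FOXO1 higher by 0.39 (adjusted p = 0.011). On the 12 arrays left without replicate 1, when 21.4% of all genes were called, 3 other G1 genes, 6 of the E2F list, 4 ligase partners, 0 MuvB genes and 2 factors were called. With the replicate number as a block, when 17.7% of all genes were called, 3 other G1 genes were called, 2 higher and 1 lower.

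In the interaction CDC25A was the 1 gene of the 5 lists called, where 0.888% of all genes were. With replicate 1 left out, when 4.01% of all genes were called, 3 of the other G1 genes, 2 of the E2F list, 2 ligase partners, 0 MuvB genes and 1 factor were called.

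**Figure D5:**
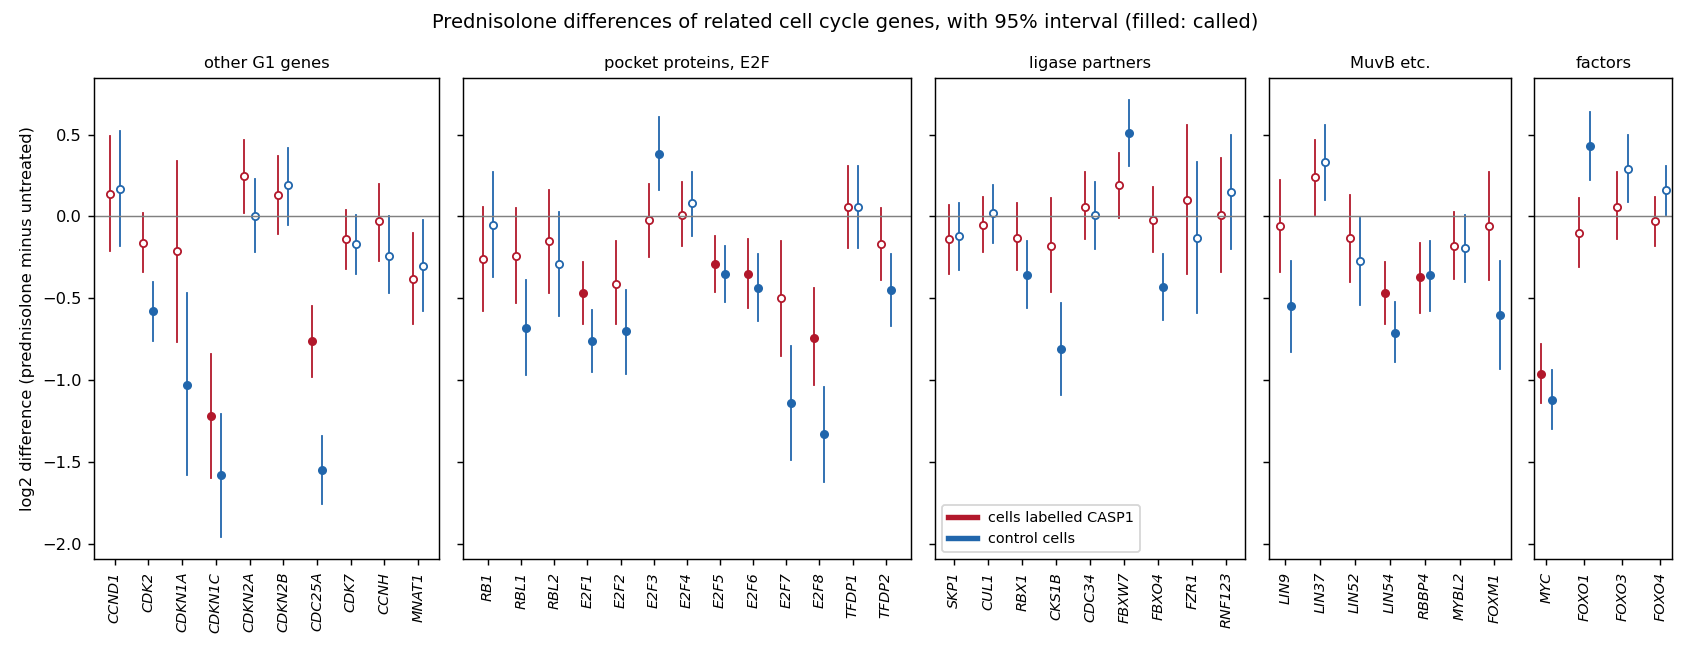
Log2 difference of prednisolone minus untreated, with its 95% interval, for 43 related genes in 5 lists, in cells labelled CASP1 (left of each pair) and control cells (right). Filled points were called by limma, and CDKN1C, CDC25A, E2F8 and MYC were lower in both lines.

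The genes whose profiles lay closest to SKP2 over the 16 arrays, by the root mean square difference after each gene was centred on its mean, were ASS1 at 0.27, RRM2 at 0.30, APOBEC3B at 0.34, SPC25 at 0.35 and DDB2 at 0.36, where SKP2 itself spanned 2.34. ASS1 makes argininosuccinate, RRM2 is a subunit of ribonucleotide reductase, and SPC25 is a kinetochore protein. The closest to CCND3, the member with the next largest drug difference, were MCM2 and DYRK3 at 0.18, MMS22L and MYC at 0.20 and MCM6 at 0.22, where CCND3 spanned 1.60. MCM2 and MCM6 are subunits of the replicative helicase. MYC had drug differences of -0.96 in cells labelled CASP1 and -1.12 in control cells, and CCND3 of -1.08 and -1.41.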

How the data were processed

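The 16 columns of the deposited table hold log2 probe set signals that the authors computed with RMA (submitters' processing notes). No software, version or probe set definition is stated there. Since RMA forces a shared scale on the arrays, a change in total RNA per cell cannot be seen. All 16 columns matched a sample, and 0 belonged to none. Gene names came from the platform annotation. Each of 18132 genes was represented by its brightest probe set among those with 1 gene (44988 of 49395).

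Differences were tested in R 4.3.3 by limma 3.58.1, fitting the means of the 4 groups to all 16 arrays at once (12 residual degrees of freedom, 5.46 prior), a two-sided moderated test (eBayes), and Benjamini-Hochberg adjustment over all genes in each comparison. Adjusted p-values are limma's throughout, and a gene was called under 0.05. The test was checked on simulated data. The genes named were all members, up to 4 called genes of each pathway list per comparison with the largest difference, the check genes CASP1 and TSC22D3, and the 5 nearest profiles of SKP2 and of the next most responsive member. SKP1, FOXO3 and FOXO4, and the prednisolone values of E2F3, RB1 and CUL1, fall outside this rule and were added after they were seen. Pairing by replicate number was judged by whether all 4 same-numbered pairs had deviations from the group means that correlated over 0.1. The main tests were unpaired in every comparison, and the replicate number as a block was an alternative only. Only the untreated lines met this cutoff (0.15 to 0.43). The drug comparisons missed it by their lowest pair alone (0.096 to 0.44 in cells labelled CASP1, 0.076 to 0.51 in control cells). The cutoff therefore separates these comparisons only narrowly. The labels give no source for such a pairing. The members and lists were chosen with earlier results of these data known. Promoter sequences are RefSeq's (GRCh38.p14). Alternatives were another quantile normalization, centring on the 75th percentile, leaving out the dimmest 30% of genes, the mean of a gene's probe sets, adjustment over all probe sets, only the groups compared, the replicate number as a block, no replicate 1 arrays, other eBayes settings, and leaving out each array. The same alternatives for the pathway lists were added after seeing the data.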

Additional observations from a re-analysis of the deposited data

Results flagged for a closer look

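In 36 sets of 4 arrays (9 genes in 4 groups), 4 had an array far from the other 3 by Dixon's test, which flags about 1 in 20 by chance, and each of these was replicate 1. CDKN2D was 8.02 on replicate 1 of the untreated cells labelled CASP1, against 7.17 to 7.24 on the others, and 7.36 on replicate 1 of the treated control cells, against 6.64 to 6.76. CDK4 was 9.40 on replicate 1 of the untreated cells labelled CASP1, against 9.52 to 9.53. CDK6 was 10.87 on replicate 1 of the treated cells labelled CASP1, against 10.94 to 10.95.

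The drug response of SKP2 differed between the lines by the test of the interaction, at 1.23 (SE 0.15, limma adjusted p = 0.00048), with every treated array below every untreated array in both lines. Without the 4 arrays of replicate 1 it was 1.06 (adjusted p = 0.00071).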

How the results depend on the processing

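Without the 4 arrays of replicate 1, 5 members were called with prednisolone in cells labelled CASP1, against 3 on all arrays, and 3 in the interaction, against 1; the cause was not tested. Without those arrays the count over all genes was 2161 against 1150 with prednisolone in cells labelled CASP1, 3969 against 2568 in control cells, 3876 against 2552 between untreated lines and 727 against 161 in the interaction. With only the groups compared it was 688 for prednisolone in cells labelled CASP1. On leaving out 1 array, 3 to 4 members were called with prednisolone in cells labelled CASP1 (4.36% to 7.13% of all genes). In control cells 4 to 6 were called (11.2% to 17.5% of all genes). Between treated lines 4 were called each time (12.4% to 17.6%), and between untreated lines 3 to 6 (10.9% to 18.4%). The interaction was called for 1 to 2 members, where the count over all genes ranged from 96 to 268 (0.529% to 1.48%). With the mean of a gene's probe sets, SKP2 between untreated lines changed sign to -0.09 (adjusted p = 0.77); the dimmer SKP2 probe set has the opposite sign. Of the single results of members under all alternatives, 1076 kept their side of the threshold, 25 lost a call, 13 gained one, 1 reversed and 1 moved across 0 uncalled (CDK4 between treated lines, 0.04 without replicate 1). Over all groups, 15 of 24 same-numbered pairs correlated over 0.1 (range -0.12 to 0.51), and 7 of 16 arrays correlated best with their own number. Every pair was over 0.1 only between the untreated lines. The drug comparisons missed this by their lowest pair alone, at 0.096 in cells labelled CASP1 and 0.076 in control cells. With the replicate number as a block, 3, 6, 4, 6 and 1 members were called in the 5 comparisons. The added call was CCNE2 between untreated lines (0.52, limma adjusted p = 0.025), and the block changed no other call of a member. The shares of all genes called were then 8.6%, 17.5%, 21.1%, 17.7% and 1.59% in the same order, with 289 genes in the interaction.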
